A study of Mus musculus with 7 samples.

Results

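Microglia from mice given both CD4 T cell depletion and an antibody to CTLA4 were set against microglia from mice given control IgG. The comparison took 5 of the series' 7 RNA sequencing libraries, namely 3 of the combined treatment (below, the depletion libraries 1, 2 and 3) and 2 of IgG (IgG 1 and 2). A gene entered when it had at least 1 FPKM (fragments per kilobase of transcript, scaled to sequencing depth) in 2 or more of the 5, which 12739 of the 24537 genes in the deposited table did. Of these, 11199 reached that level in all 5 libraries and 444 in exactly 2. Another 798 genes reached it in a single library and were left out.

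All mice were C57BL/6 and carried the 005 glioma, a mouse glioblastoma model of implanted tumour cells. Cells were sorted as CX3CR1+ with intermediate CD45 from glioma-bearing brain 35 days after implantation. The labels give no sex or age and name no knockout, transgene or Cre, and the IgG is not described beyond its name. Treatment with both agents differs from IgG in 2 ways at once, so a difference cannot be told apart between depletion of CD4 cells and the CTLA4 antibody. Nothing in the labels says that libraries of a group came from separate mice, and p-values therefore measure the spread between libraries, which may be technical. Depletion library 1 stood apart from the other 4, with monocyte markers that summed to 2309 FPKM against 64.4 to 184 elsewhere, so some counts are also given without it, and others without another library that moved them.

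Microglia are the resident macrophages of the brain. They can show peptides to CD4 T cells on MHC class II molecules, which pair an alpha with a beta chain, are escorted by the invariant chain Cd74 and are loaded with peptide by the H2-DM protein. Interferon-gamma, made largely by T and natural killer cells, acts through the receptor Ifngr1 and Ifngr2 and the kinases Jak1 and Jak2. It induces Ciita, the master activator of class II genes, and also Nlrc5, its counterpart for class I genes. CTLA4 is an inhibitory receptor of T cells that competes for Cd80 and Cd86 on antigen-presenting cells.

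Transcripts of the class II genes H2-Aa, H2-Ab1, H2-Eb1 and Cd74 were several times lower in each depletion library than in either IgG library. In bulk RNA, fewer cells of a type and less RNA per cell cannot be told apart. Across all genes, however, 0 of 12739 were higher (0%) and 0 were lower (0%) at a limma adjusted p under 0.05, and the smallest adjusted p was 0.728. An unadjusted p under 0.05 was found for 336 genes higher in the depletion group (2.64%) and 427 lower (3.35%). There were 1392 genes with every depletion library above both IgG libraries (10.9%) and 2086 with every one below (16.4%). These shares are the background for the counts that follow, and scaling to microglia markers moved the second pair to 145 higher and 1208 lower. The median difference over all tested genes, depletion minus IgG on the log2(FPKM + 1) scale, was -0.04. Differences of at least 1 on that scale were found for 193 genes higher in the depletion group and 146 higher in IgG. Of the 10 genes with the smallest p, 6 were class II genes of the list described next, and H2-Aa was the first (limma unadjusted p = 0.000105). The Y-linked gene Eif2s3y, described below, ranked 3 by p (limma unadjusted p = 0.000247), ahead of H2-Eb1 and Cd74. An exact two-sided permutation of 3 against 2 libraries cannot go below 0.1, so no single value can pass 0.05 by that test.

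The start regions of some class II, class I and interferon-gamma genes are shown as examples of the motifs counted below, the Y box in class II and class I genes and another element in Igtp. RefSeq promoters (build GRCm38.p6, 250 bases before to 50 after the start site) were searched on both strands for the Y box TGATTGG, the element bound by the factor NF-Y in class I and class II promoters. The same windows were searched for TTCNNNGAA, called the interferon-gamma-activated site. The motifs differ in letters, and a match of one does not imply a match of the other. A match is in capitals, and the sequences read 5′ to 3′ in the direction of the gene.
H2-Aa, chr17:34287774-34288073, minus strand: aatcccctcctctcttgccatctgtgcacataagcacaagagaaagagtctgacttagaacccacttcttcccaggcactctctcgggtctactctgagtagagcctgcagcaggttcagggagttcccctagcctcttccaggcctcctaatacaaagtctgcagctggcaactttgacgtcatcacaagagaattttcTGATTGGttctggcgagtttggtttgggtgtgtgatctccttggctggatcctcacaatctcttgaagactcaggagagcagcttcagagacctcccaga
H2-Eb1, chr17:34305617-34305916, plus strand: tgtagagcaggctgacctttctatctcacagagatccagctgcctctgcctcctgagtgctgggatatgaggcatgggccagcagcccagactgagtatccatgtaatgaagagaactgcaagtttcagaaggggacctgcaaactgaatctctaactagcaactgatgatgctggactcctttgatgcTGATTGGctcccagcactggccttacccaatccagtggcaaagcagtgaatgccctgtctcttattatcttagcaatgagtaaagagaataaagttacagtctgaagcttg
H2-DMb1, chr17:34152941-34153240, plus strand: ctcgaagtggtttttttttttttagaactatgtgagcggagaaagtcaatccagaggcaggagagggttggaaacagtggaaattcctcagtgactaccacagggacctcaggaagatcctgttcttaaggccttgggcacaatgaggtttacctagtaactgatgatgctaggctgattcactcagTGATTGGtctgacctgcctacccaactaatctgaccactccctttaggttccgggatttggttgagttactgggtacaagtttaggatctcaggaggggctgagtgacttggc
H2-K1, chr17:34000284-34000583, minus strand: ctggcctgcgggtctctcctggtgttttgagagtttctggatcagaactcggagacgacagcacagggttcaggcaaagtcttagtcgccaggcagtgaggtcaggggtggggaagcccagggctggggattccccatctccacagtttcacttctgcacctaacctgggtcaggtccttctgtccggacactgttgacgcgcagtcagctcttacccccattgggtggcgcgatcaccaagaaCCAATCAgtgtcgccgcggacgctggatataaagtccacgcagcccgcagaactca
Psmb9, chr17:34187281-34187580, minus strand: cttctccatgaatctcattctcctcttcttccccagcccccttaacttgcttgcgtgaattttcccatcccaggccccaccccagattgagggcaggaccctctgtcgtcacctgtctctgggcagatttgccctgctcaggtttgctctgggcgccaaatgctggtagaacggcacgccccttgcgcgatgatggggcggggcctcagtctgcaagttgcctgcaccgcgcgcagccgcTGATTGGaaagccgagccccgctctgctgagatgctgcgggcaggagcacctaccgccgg
Igtp, chr11:58199306-58199605, plus strand: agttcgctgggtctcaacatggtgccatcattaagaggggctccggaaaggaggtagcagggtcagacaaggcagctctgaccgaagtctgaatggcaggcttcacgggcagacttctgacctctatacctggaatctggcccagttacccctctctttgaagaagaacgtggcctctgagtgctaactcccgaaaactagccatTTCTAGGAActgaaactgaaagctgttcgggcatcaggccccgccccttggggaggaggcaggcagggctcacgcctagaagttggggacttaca

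The Y box began 50 bases before the start site in H2-Aa, 61 in H2-Eb1 and 63 in H2-DMb1. In H2-K1 it lay on the opposite strand 6 bases before the start and in Psmb9 10 bases before it. That match of Psmb9 also falls in the window of Tap1, its neighbour on the other strand. Of 11 tested class II genes with a promoter entry, 7 held a Y box (63.6%), as did 9 of 19 class I genes (47.4%), against 1026 of 9646 tested genes (10.6%). Interferon-gamma response genes held it in 4 of 20 and type I interferon genes in 1 of 27 (3.7%). The interferon-gamma-activated site, shown in Igtp with its first base 45 before the start, was in 8 of 20 interferon-gamma promoters. It was in 7 of 27 type I interferon promoters (25.9%), 2 of 19 class I (10.5%), 1 of 11 class II (9.09%) and 661 of 9646 tested genes (6.85%). A match is only the presence of these letters. H2-DMa and Irgm1 had no match of the motif looked for in them.

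Class II chains came first. H2-Aa, the alpha chain of the I-A molecule (chr17:34282751-34287771, build mm10), stood at 85.9, 102 and 68.4 FPKM in depletion libraries 1, 2 and 3 and at 327 and 474 in IgG 1 and 2, the order used throughout. All 3 depletion libraries lay far below both IgG libraries. The group means were 85.4 ± 16.7 (SD, n = 3) and 400.4 ± 104 (SD, n = 2), a ratio of 4.69 in favour of IgG, and the log2 difference was -2.21 (SE 0.24, 95% interval -2.81 to -1.61). H2-Ab1, the beta chain of I-A (chr17:34263227-34269418), stood at 153, 173 and 124 FPKM against 492 and 736, with a log2 difference of -2.01 (SE 0.24). H2-Eb1, the beta chain of the I-E molecule, which C57BL/6 mice do not assemble for want of its alpha chain (chr17:34305867-34316674), stood at 47.8, 64.6 and 38.5 against 179 and 274, a difference of -2.15 (SE 0.28). The chains kept 1 order within each group, with depletion library 2 the highest and 3 the lowest of the treated libraries and IgG 2 above IgG 1.

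Cd74, the invariant chain (chr18:60803849-60812652), followed the same order. It stood at 335, 409 and 290.4 FPKM in the depletion libraries and at 1101 and 1956 in IgG. The means of 345 ± 59.6 (SD, n = 3) and 1529 ± 604 (SD, n = 2) gave a ratio of 4.43 in favour of IgG and a log2 difference of -2.1 (SE 0.31). The IgG libraries themselves differed, so that the size of the ratio rests on which is taken.

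The peptide-exchange chains were lower by less. H2-DMa (chr17:34122832-34139101) stood at 53.1, 62.4 and 59.8 FPKM against 101 and 116, a log2 difference of -0.88 (SE 0.15). H2-DMb1 (chr17:34153191-34160229) stood at 25.7, 28.04 and 26.7 against 47.99 and 56.3, with -0.93 (SE 0.14). The treated libraries were nearly level for both, and no library overlapped. H2-Oa, a chain of the H2-DO protein that restrains H2-DM, was at 7.25, 14.4 and 12.03 against 24.1 and 24.1, again with no overlap, while its partner H2-Ob overlapped at 2.86, 4.76 and 5.12 against 5.52 and 4.67.

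Ciita was lowly expressed, at 0.768, 1.92 and 0.184 FPKM in the depletion libraries and 5.04 and 3.397 in IgG. Its libraries did not overlap, and the log2 difference was -1.49 (SE 0.40), a value that the pseudocount of 1 makes smaller than the ratio of 4.399. The constant factors that bind class II promoters beside it showed no such gap. Rfx5 was at 2.82, 3.62 and 3.73 against 3.95 and 3.91, with all treated libraries just below IgG. Rfxank and Rfxap overlapped, with log2 differences of 0.12 and 0.14. Ctss, the protease that trims the invariant chain, overlapped at 2121, 1529.7 and 1934 FPKM against 1496 and 2119, with a 95% interval of -0.66 to 0.76 for its log2 difference. Ifi30, the lysosomal thiol reductase, overlapped too, at 132, 33.2 and 55.7 against 21.7 and 58.8, and so did H2-DMb2 at 5.23, 1.99 and 2.01 against 1.69 and 4.44.

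Of the 16 class II genes listed, 15 were tested. Of these, 9 were lower in every depletion library and 0 higher, 8 had an unadjusted p under 0.05, all of them lower, and the median log2 difference was -0.88. The 9 are 60.0% of the list, beside 16.4% of all tested genes. The count was 9 without depletion library 1, 2 or 3 or without IgG 1, and 10 without IgG 2, beside 18.9% to 30.4% of all genes in those sets of libraries. The 0 higher became 2 without depletion library 1 (19.4% of all genes), 5 without IgG 2 (23.6%) and 2 under median-of-ratios or quantile scaling. Microglia markers had a list median of -0.01, with Csf1r, the growth factor receptor of the lineage, at 575, 802 and 734 against 687 and 602 FPKM.

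**Figure D1:**
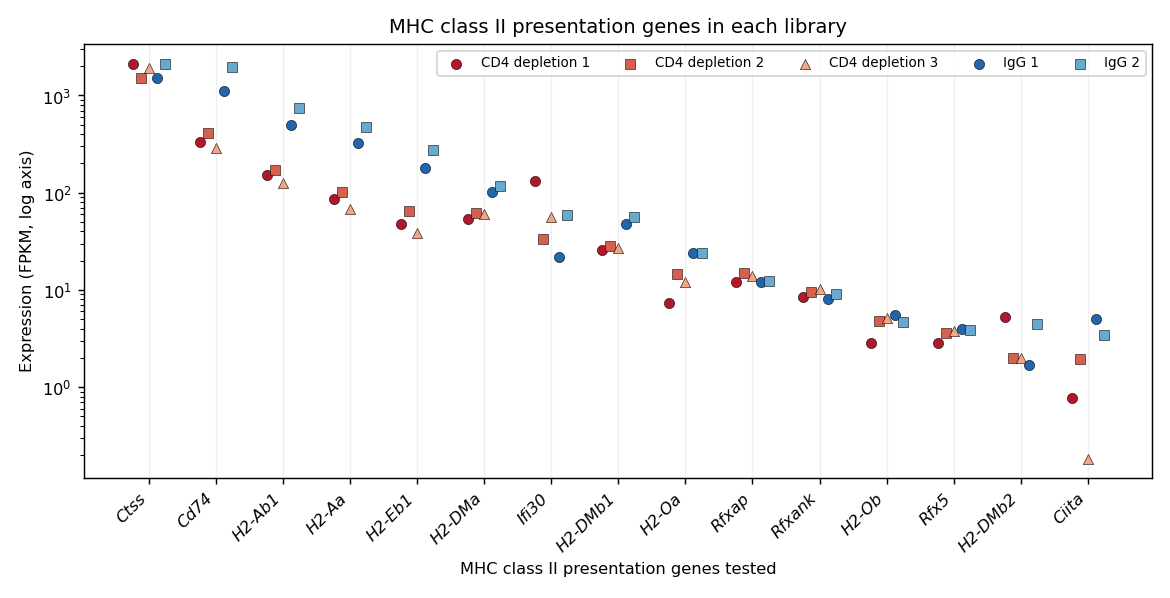
FPKM (log axis) of the 15 tested MHC class II presentation genes in each library, with reds for the 3 depletion libraries and blues for the 2 IgG libraries, ordered by level. Red points lie below blue ones for Cd74, H2-Ab1, H2-Aa, H2-Eb1, H2-DMa, H2-DMb1, H2-Oa, Rfx5 and Ciita, and overlap them for Ctss, Ifi30, Rfxap, Rfxank, H2-Ob and H2-DMb2.

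Class I genes, which load peptides from the cytosol for CD8 T cells, were lower across most of the pathway. Of 22 listed and tested, 18 were lower in every depletion library (81.8%) and 0 higher, beside 16.4% and 10.9% of all genes. An unadjusted p under 0.05 was found for 18, and the median log2 difference was -0.89. Without depletion library 1 the count was also 18 lower, beside 18.9% of all genes. The heavy chain H2-K1 stood at 266, 544 and 398 FPKM against 867 and 748, with depletion library 1 the lowest and library 2 nearest to IgG. H2-D1, the other classical heavy chain, stood at 609, 936 and 780.1 against 1445 and 1358, in the same order. B2m, the light chain shared by all of them, stood at 1355, 1797 and 1703 against 2746 and 2462, a log2 difference of -0.69 (SE 0.26). Reads of class I heavy chains can be shared among near-identical copies, so the split between family members is uncertain.

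Non-classical chains and processing factors had the same pattern. H2-T23, which encodes Qa-1, was at 76.9, 108 and 83.8 FPKM against 161 and 171 and had the smallest p of the list, with a log2 difference of -0.90 (SE 0.18). H2-M3, which presents formylated peptides, was at 17.8, 32.4 and 22.4 against 59.3 and 46.9. Psmb8, a catalytic subunit of the immunoproteasome, was at 87.2, 159 and 80.7 against 237 and 239, and Psmb9, another, at 28.6, 80.4 and 39.01 against 138 and 106. In each of these, no treated library reached an IgG library. Psme1, an activator subunit of the proteasome, had a smaller log2 difference of -0.53 (SE 0.14). Tap1, a subunit of the peptide transporter, was at 21.2, 58.5 and 25.9 against 93.6 and 69.01, and Nlrc5 at 1.99, 4.99 and 2.22 against 6.22 and 7.504. The 4 members that overlapped were general chaperones and loading factors: Tapbp at 76.4, 97.02 and 77.8 against 96.9 and 95.4, and Calr, Pdia3 and the trimming peptidase Erap1 with log2 differences of -0.06, 0.03 and -0.29.

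Interferon-gamma induced genes differed between the groups and also within the treated group. Of 31 listed, 28 were tested. Of these, 16 were lower in every depletion library (57.1%) and 1 was higher (3.57%), beside 16.4% and 10.9% of all genes. The median log2 difference was -1.12. An unadjusted p under 0.05 was found for 17, all lower. The 16 lower became 23 without depletion library 2, beside 29.8% of all genes, and 26 without IgG 2, beside 29.1%. Igtp, a GTPase of the immunity-related family, stood at 15.1, 99.7 and 36.3 FPKM against 247 and 153, and Irgm1, another, at 24.5, 136 and 60.2 against 267 and 186. Depletion library 1 was the lowest and library 2 the closest to IgG in both genes.

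Large differences came with large standard errors in this list. Tgtp2, a GTPase of the same family, had the largest log2 difference of the list, -2.52 (SE 0.75), at 1.57, 15.97 and 4.87 FPKM against 44.2 and 28.3. Il18bp, a secreted inhibitor of interleukin 18, was at 4.598, 9.35 and 6.61 against 13.4 and 16.2, and the guanylate-binding protein Gbp8 at 0.479, 1.51 and 1.05 against 2.69 and 2.62. Cxcl9, which draws T cells, was at 0.51, 4.31 and 2.14 against 4.89 and 8.36, with no overlap. Its relative Cxcl10 overlapped, at 53.6, 140.0 and 79.7 against 154 and 86.9. Upstream, Ifngr1 and Ifngr2 overlapped, with log2 differences of 0.16 and 0.43, and Jak1 was the 1 gene higher in every depletion library, at 29.9, 26.8 and 26.1 against 23.4 and 21.5. Ifng itself was under the filter, at 0.015, 0.114 and 0.124 FPKM against 0.383 and 0.118.

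By library, the mean log2(FPKM + 1) of the 28 interferon-gamma genes was 3.23, 4.64 and 3.72 in the depletion group and 5.2 and 4.74 in IgG. Depletion library 2 lay close to IgG 2, and libraries 1 and 3 lay lower. The class II list had 4.91, 4.97 and 4.79 against 5.52 and 5.88, a tighter treated group. Without depletion library 2 the interferon-gamma median was -1.5 and without library 1 it was -0.84. Medians of class II, class I and interferon-gamma lists stayed below 0 in all 15 alternatives tried.

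Genes of the type I interferon response had another pattern. Of 36 tested, 5 were lower (13.9%) and 2 higher (5.56%) in every depletion library, beside 16.4% and 10.9% of all genes. An unadjusted p under 0.05 was found for 1, and the median log2 difference was 0.06. The sign of the median changed between settings, with -0.11 without depletion library 1 and 0.24 without library 2. The counts moved with it. Without depletion library 1, 12 were lower and 2 higher, beside 18.9% and 19.4% of all genes, and without library 2, 5 were lower and 11 higher, beside 29.8% and 17.3%. Without IgG 1, 8 were lower and 3 higher, beside 30.4% and 22% of all genes. Without IgG 2, 9 were lower and 13 higher, beside 29.1% and 23.6%. Median-of-ratios scaling left 1 lower, quantile scaling 2 and scaling to microglia markers 3, beside 15%, 15.9% and 9.48% of all genes. Those settings left 2, 2 and 0 higher, beside 13.2%, 12.3% and 1.14%. Irf9, a partner of Stat2, was at 21.3, 29.4 and 21.8 FPKM against 42.2 and 32.2, with no overlap. The antiviral genes that were high in depletion library 1 overlapped between groups: Rsad2 was at 20.7, 3.13 and 5.79 against 2.91 and 3.57. Irf7, a regulator of the response, was at 51.95, 17.3 and 24.04 against 14.5 and 20.2, and the ubiquitin-like Isg15 at 43.1, 21.5 and 28.7 against 25.1 and 22.8. These 3 genes are shown because they were high in depletion library 1, the lowest in the interferon-gamma list. Over the 36 tested genes, the mean log2(FPKM + 1) was 3.83, 3.08 and 3.3 against 3.22 and 3.36.

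**Figure D2:**
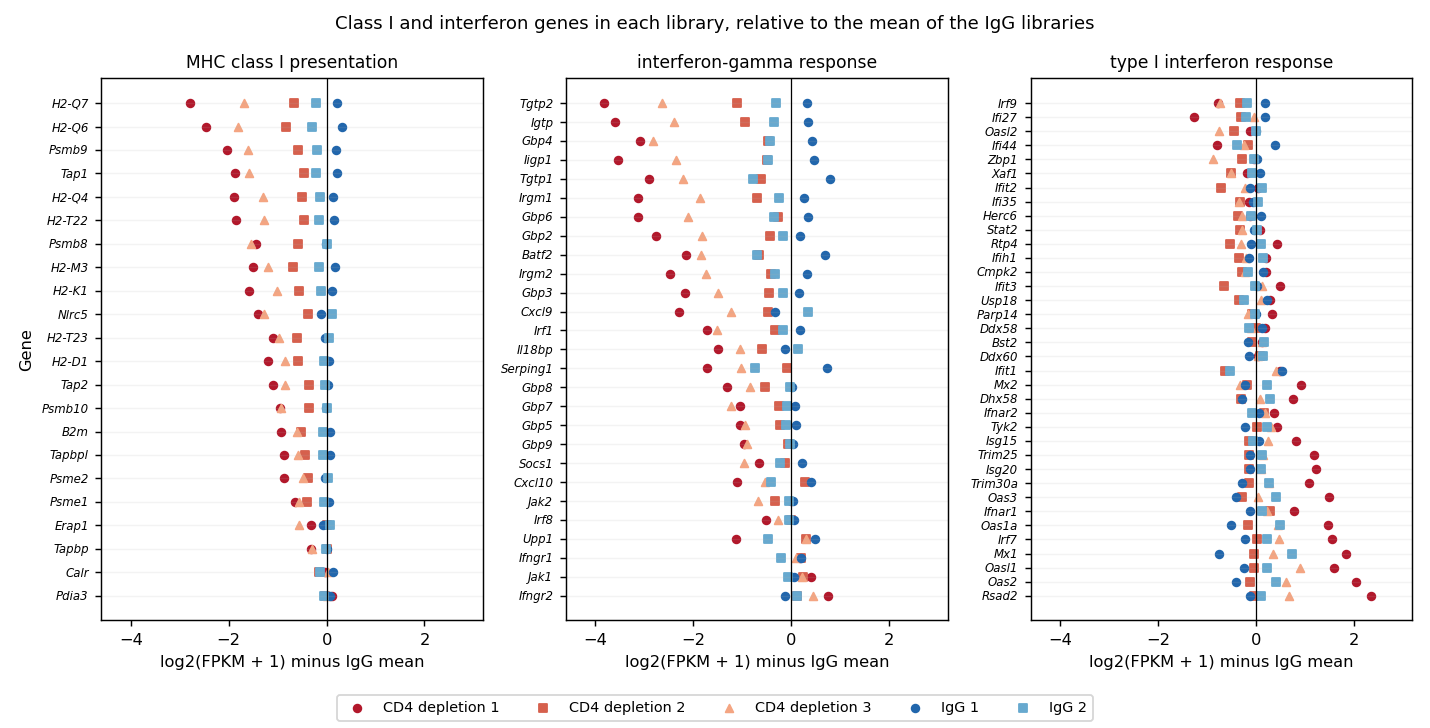
Tested genes of the class I, interferon-gamma (27 of 28) and type I interferon lists in each library, as log2(FPKM + 1) minus the mean of the IgG libraries. Treated libraries (reds) lie left of 0 for most genes of the first panels with library 2 nearest to IgG, and spread to both sides in the third panel, where library 1 lies farthest right.

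Markers of the sorted cells and of other cells were read in the same libraries. The sorted libraries carried microglia markers at high levels. P2ry12, a purinergic receptor of resting microglia, was at 147, 585 and 403 FPKM against 522 and 327, Tmem119 at 243, 505 and 481 against 467 and 368 and Cx3cr1 at 211, 391 and 323 against 334 and 259.9. All overlapped, and depletion library 1 was the lowest for each. Of the 10 markers tested, 1 was higher in every depletion library, beside 10.9% of all genes. Without depletion library 1, 6 were higher, beside 19.4% of all genes. The summed FPKM of the 10 tested microglia markers ran from 3104 to 4936 in the depletion group and from 3613 to 4437 in IgG.

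Depletion library 1 stood apart from the others. Its correlation with the other depletion libraries, across genes that are not independent replicates, was 0.917 and 0.934, while libraries 2 and 3 had 0.975 with each other. With IgG 1 and 2, library 1 had 0.886 and 0.905, library 2 had 0.976 and 0.973 and library 3 had 0.958 and 0.964. The IgG libraries had 0.965 with each other, so libraries did not group by treatment. Summed monocyte markers were at 2309 FPKM in library 1, against 95.7 and 112 in libraries 2 and 3 and 64.4 and 184 in IgG. Chil3, a product of recruited macrophages, was at 487, 0.419 and 2.48 FPKM against 0.109 and 12.2. Ccr2, the chemokine receptor of monocytes, was at 43.1, 1.02 and 1.302 against 1.02 and 2.24, and Ly6c2 at 35.03, 1.46 and 2.73 against 0.447 and 0.553. Neutrophil markers summed to 591 in library 1, 64.7 and 103 in libraries 2 and 3, and 66.6 and 41.7 in IgG. Border-associated macrophage markers did likewise, at 212, 26.2 and 44.6 against 16.1 and 29.1. Of the 20 monocyte markers, 14 were tested and 2 were higher in every depletion library (14.3%), beside 10.9% of all genes. These 2, Ly6c2 and Lyz1, reached 1 FPKM in depletion libraries only, so they entered the comparison through that group. Under the filter at 5 FPKM, 8 were tested and 0 were higher, beside 11% of all genes. The median log2 difference of the 14 was 1.33, or 0.06 without library 1. The part of these cells in the other results was not tested.

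Most T cell markers were under the filter. Cd4 was at 0.226, 0.115 and 0.142 FPKM against 0.23 and 0.439, Cd3e at 0.548, 0.576 and 0.344 against 0.307 and 0.317 and Cd8a at 0.171, 0.111 and 0.369 against 0.103 and 0.204. Ctla4 was at 0.111, 0.154 and 0 against 0.166 and 0. Of 25 T and NK cell markers, 22 were in the table and 4 passed the filter. Foxp3, the factor of regulatory T cells, was at 2.38, 2.35 and 3.02 against 1.76 and 2.04, and Nkg7, of cytotoxic granules, at 1.22, 2.13 and 1.65 against 1.19 and 1.03. Both were low and higher in every depletion library, with the nearest libraries of the groups less than 1 FPKM apart, and Lck, a kinase of the T cell receptor, overlapped at 0.394, 1.85 and 1.65 against 2.42 and 1.35. The 4 tested genes summed to between 28.4 and 53.6 FPKM in the depletion group and 28.7 and 37.2 in IgG, mostly from Ccl5, which overlapped at 26.1, 15.6 and 42.9 against 18.4 and 28.4. Of 10 B cell markers, 3 were tested. Pax5, the B lineage factor, was listed at 0 in all 5 libraries. Among 13 dendritic cell markers, 5 were tested with a median difference of -0.0033, and Siglech, 1 of the 5, is also on the microglia list. Ccr7 was higher in every depletion library, at 9.32, 2.71 and 1.42 FPKM against 0.678 and 1.25, and 0 of the 5 were lower in every one. Xcr1 and Clec9a stayed at or below 0.2 FPKM in every library.

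Tumour and glial precursor genes were lower with treatment. All 22 oligodendrocyte precursor-like and tumour cell markers were tested. Of these, 13 were lower in every depletion library (59.1%) and 0 higher, beside 16.4% and 10.9% of all genes. The median log2 difference was -0.87. An unadjusted p under 0.05 was found for 8, all lower. Gpr17, a receptor of committed precursors, was at 0.476, 1.99 and 1.06 FPKM against 5.53 and 5.05, Lhfpl3 at 6.83, 19.6 and 16.04 against 38.3 and 50.8 and Olig1, a lineage factor, at 73.03, 270.4 and 159 against 297 and 439.6. Depletion library 1 was the lowest in each. Summed FPKM were 256, 823 and 635 in the depletion group and 966 and 1319 in IgG, lower in treated libraries as class II genes were. Their part in the class II result was not tested. Gjc3, a connexin of the oligodendrocyte lineage named by its p among all genes, was at 2.17, 3.33 and 3.09 against 7.51 and 6.85.

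Other brain cell markers were mixed. Of 14 astrocyte markers, 4 were lower in every depletion library (28.6%), beside 16.4% of all genes. Among them was Aldh1l1, a folate enzyme, at 1.75, 1.76 and 3.06 FPKM against 5.31 and 6.55. Gfap, the intermediate filament of reactive astrocytes, overlapped at 69.4, 56.9 and 114 against 28.3 and 64.2. Of 11 mature oligodendrocyte markers tested, 1 was lower in every depletion library (9.09%), and of 6 neuronal markers 2 were (33.3%). Ependymal and choroid plexus genes differed inside both groups, as shown by Ttr, a carrier made by the choroid plexus, at 32.7, 281 and 277 against 469 and 27.3. Haemoglobin genes did so as well, with Hbb-bs at 76.4, 263 and 102 against 149 and 23.4, and the 8 ependymal and 7 erythroid genes tested included 0 and 1 that did not overlap.

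**Figure D3:**
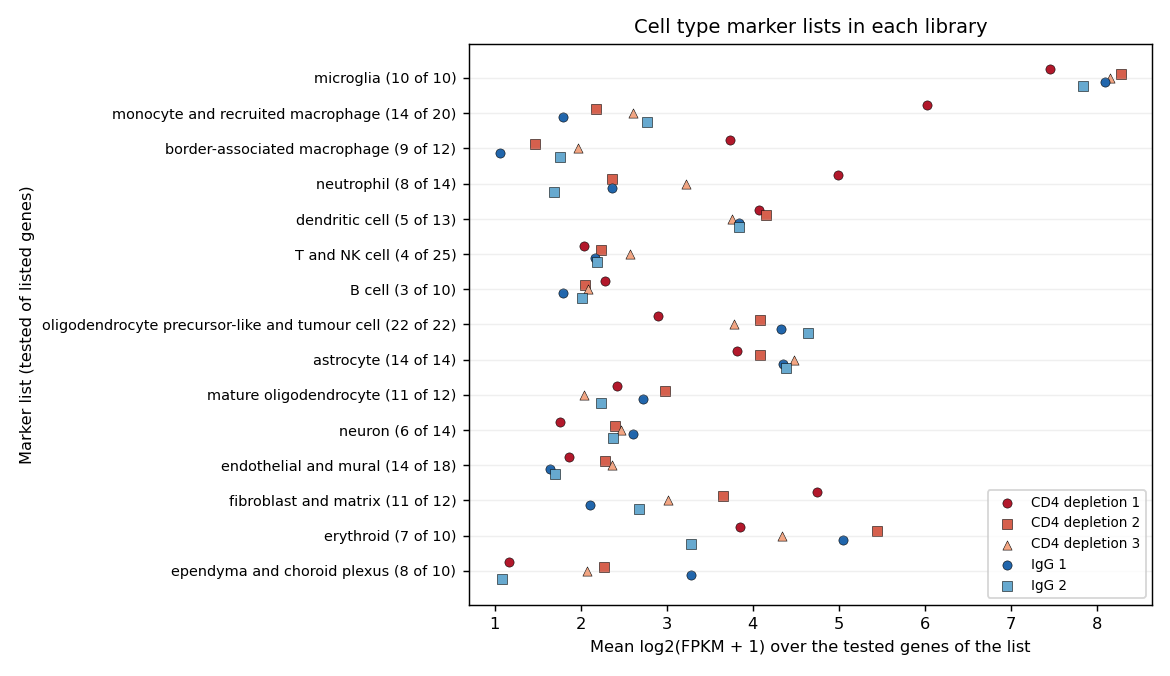
Mean log2(FPKM + 1) over the tested genes of each cell type marker list, 1 point per library, with the number tested of those listed. Depletion library 1 lies far to the right for monocyte, border-associated macrophage and neutrophil markers, and microglia markers are the highest list in every library.

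Fibroblast and matrix genes had the highest median difference of all lists, and vessel wall genes a smaller one. Of 11 fibroblast and matrix genes tested, 6 were higher in every depletion library (54.5%) and 0 lower, beside 10.9% and 16.4% of all genes. The median log2 difference was 1.62, or 1.16 without library 1. Islr, a secreted protein of stromal cells, was at 15.99, 11.1 and 18.3 FPKM against 3.55 and 5.99, and the proteoglycan Dcn at 28.7, 23.4 and 8.47 against 3.61 and 7.33. Their summed FPKM were 558, 153 and 108 against 46.5 and 74.6, with library 1 again the highest. Of 14 endothelial and mural genes, 6 were higher in every depletion library (42.9%, beside 10.9% of all genes), with a median of 0.41. Among the 6 was Kcnj8, at 0.746, 1.99 and 1.83 FPKM against 0.288 and 0.743, which entered the comparison through the depletion group only. Under the filter at 5 FPKM, 4 were tested and 2 were higher, beside 11% of all genes. Cldn5, a tight junction protein of brain endothelium, was at 7.28, 11.6 and 16.3 against 4.47 and 5.14. Unlike the matrix genes, Cldn5 was lowest in library 1 among the treated.

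Other genes were named by their p among those without overlap. Serpinh1, the collagen chaperone of the endoplasmic reticulum, was at 131, 38.1 and 66.01 FPKM against 13.7 and 12.7, a log2 difference of 2.31 (SE 0.48). Mxra8, a cell adhesion protein, was at 14.1, 10.3 and 14.7 against 4.65 and 5.17, with 1.23 (SE 0.19). Igfbp7, a secreted binding protein of insulin-like growth factors, was at 84.8, 38.1 and 55.1 against 14.1 and 19.2. Meox1, a homeobox factor, was at 38.7, 13.7 and 11.5 against 2.33 and 3.399. Depletion library 1 was the highest for Serpinh1, Igfbp7 and Meox1 and library 3 for Mxra8. The other higher genes of that rule were Sap25, Arrdc1, Hmha1, the tubulin Tubb6 and Ints6l, with log2 differences of 1.08, 0.86, 0.69, 0.93 and 0.81.

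Below IgG, the rule named 3 genes outside antigen presentation besides Gjc3. Rgcc, a regulator of the cell cycle, was at 17.7, 26.3 and 18.4 FPKM against 46.9 and 62.6, with a log2 difference of -1.36 (SE 0.23). Ugdh, which makes the UDP-glucuronate used for hyaluronan, was at 21.6, 18.02 and 22.6 against 36.7 and 34.4. Hipk2, a nuclear kinase, was at 7.77, 11.6 and 10.2 against 19.3 and 19.6. Depletion library 1 was the lowest for Rgcc and Hipk2 and library 2 for Ugdh.

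Cytokine and chemokine genes were dominated by single libraries. Of 19 chemokines tested, 2 were higher in every depletion library (10.5%), beside 10.9% of all genes. An unadjusted p under 0.05 was found for 0, and the median of 0.75 stood at 0.19 without library 1. Cxcl1, which draws neutrophils, was at 6.27, 2.697 and 2.15 FPKM against 2.11 and 0.592, and Ccl6 at 297, 26.6 and 51.2 against 23.3 and 25.99. Ccl2, which draws monocytes, overlapped at 152, 37.2 and 50.7 against 22.8 and 46.9. IgG 1 was the low library for others: Il1b was at 399, 9.51 and 45.9 against 1.502 and 77.9 and Tnf at 16.4, 3.39 and 15.3 against 1.77 and 15.5. It was also the low one for immediate early genes such as Fos, at 405, 453 and 444 against 86.3 and 656. That list of 29 tested genes had a median of 0.54, or 0.06 without IgG 1.

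Of 23 inflammatory cytokine and NF-kB feedback genes, 4 were higher (17.4%) and 1 lower (4.35%) in every depletion library, beside 10.9% and 16.4% of all genes. Under the filter at 5 FPKM, 15 were tested, and 0 were higher and 1 lower, beside 11% and 17%. Il27 encodes a subunit of interleukin 27 and Il12b one shared by interleukins 12 and 23. They were low throughout, at 1.22, 1.39 and 1.04 FPKM against 0.389 and 0.493 and at 1.05, 0.672 and 2.04 against 0.266 and 0.171. Both reached 1 FPKM in depletion libraries only, so they entered the comparison through that group. Rel, an NF-kB subunit, was at 4.51, 3.54 and 2.9 against 1.78 and 2.33. Casp1, the inflammasome protease, was the 1 lower, at 26.1, 33.1 and 14.3 against 47.9 and 35.6.

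Co-stimulation and checkpoint genes had a small median difference. Of 18 tested, 4 were higher (22.2%) and 2 lower (11.1%) in every depletion library, beside 10.9% and 16.4% of all genes, with a median of 0.12. Cd86 was at 40.5, 37.3 and 40.7 FPKM against 35.1 and 34.1, higher in each treated library by a margin of a few FPKM, and its log2 difference had a 95% interval of -0.12 to 0.49. Cd274, which encodes PD-L1, overlapped at 9.22, 5.68 and 4.83 against 8.595 and 9.44, and Cd40 at 4.53, 2.204 and 2.03 against 0.934 and 3.65. Slamf9 was at 34.5, 27.8 and 37.98 against 17.6 and 27.4 and had the smallest p of the list, while Slamf8 was lower, at 3.25, 7.32 and 6.87 against 8.11 and 12.96.

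Phagocytic, complement and lysosomal lists had medians a little above 0. Of 31 phagocytosis genes, 6 were higher in every depletion library (19.4%) and 0 lower, beside 10.9% and 16.4% of all genes (median 0.22). Stab1, a scavenger receptor that is also a border-associated macrophage marker, was at 25.4, 13.8 and 16.3 FPKM against 9.42 and 9.31. Tyrobp, the adaptor of Trem2, was at 751, 444 and 556 against 356 and 415, and Trem2 itself overlapped at 189, 275 and 278 against 209 and 217. The apoptotic cell receptors Mertk and Axl overlapped, with log2 differences of 0.05 and 0.26. Of 18 complement genes, 2 were higher (11.1%) and 2 lower (11.1%), beside the same 10.9% and 16.4%. C4b was at 32.1, 20.3 and 22.3 against 33.97 and 42.3. C3 overlapped at 10.6, 3.904 and 4.37 against 9.85 and 14.9, as did C1qa. Both C4b and C3 were lowest in depletion libraries 2 and 3. Of 41 lysosome genes, 11 were higher (26.8%) and 3 lower (7.32%) in every depletion library, beside the same 10.9% and 16.4% (median 0.24). Ctsa, a carboxypeptidase, was at 196, 152 and 177 against 126 and 134 and Cd68, a membrane protein of macrophage lysosomes, at 299, 214 and 252 against 167 and 191.

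Counts of homeostatic microglia genes moved with depletion library 1. Of 31 homeostatic genes, 2 were higher (6.45%) and 1 lower (3.23%) in every depletion library, beside 10.9% and 16.4% of all genes. The median of 0.02 changed sign between settings. Without depletion library 1, 14 were higher and 1 lower, beside 19.4% and 18.9% of all genes, and the median was 0.26. Without library 2, 3 were higher and 2 lower, beside 17.3% and 29.8% of all genes, and the median was -0.16. Fcrls, a marker of resident microglia, was at 309, 298 and 346 FPKM against 265 and 186. Of 30 disease-associated genes, 8 were higher (26.7%) and 1 lower (3.33%), beside 10.9% and 16.4% of all genes (median 0.49). The 1 lower was B2m, counted with class I above, and 27 of the 30 differences were above 0. Spp1, which encodes osteopontin, was at 4095, 293 and 286 against 157 and 93.3, with library 1 far above the rest. Lpl, a lipase, was at 15.04, 8.17 and 11.1 against 5.73 and 7.22, and Hif1a, the hypoxia factor, at 65.6, 44.9 and 53.2 against 37.5 and 37.3. Apoe overlapped, at 4162, 604 and 2247 against 365 and 1246. Ptprc, which encodes the CD45 used in the sort, was at 38.4, 15.8 and 19.3 against 12.4 and 14.9. Depletion library 1 was the highest of all 5 for Spp1, Lpl, Hif1a, Apoe and Ptprc.

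Cell cycle genes differed in both directions, with more above IgG than below. Of 42 tested, 16 were higher in every depletion library (38.1%) and 5 lower (11.9%), beside 10.9% and 16.4% of all genes. The median was 0.16, and single differences ran from -0.88 to 0.53. The 5 lower were cyclin D1 and D2 (Ccnd1 and Ccnd2), their kinase Cdk4 and the replication helicase subunits Mcm6 and Mcm7. Ccnd1 had the difference farthest from 0, -0.88 (SE 0.39), at 72.3, 181 and 146 FPKM against 251 and 209.9, and depletion library 1 was the lowest for all 5. Among the genes higher in every depletion library were mitotic ones. Birc5, a mitotic regulator, was at 29.5, 31.3 and 30.7 FPKM against 22.8 and 22.05, a log2 difference of 0.43 (SE 0.12). Cyclin E1, encoded by Ccne1, was at 8.998, 7.08 and 7.12 against 5.12 and 4.91 and the kinetochore motor Cenpe at 4.96, 5.24 and 5.83 against 3.12 and 3.73. Mki67 was at 4.65, 4.38 and 3.88 against 3.87 and 3.799, a gap smaller than the spread of the treated group. The count of 16 higher became 27 without depletion library 1, beside 19.4% of all genes. It was 23 with median-of-ratios scaling, beside 13.2%, and 0 after scaling to microglia markers, beside 1.14%, where 2 were lower. The median stayed above 0 in all 15 alternatives.

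Metabolic lists had small medians. Of 52 nuclear genes of oxidative phosphorylation, 0 were higher and 11 lower in every depletion library (21.2%, beside 16.4% of all genes), with a median of -0.13. The 11 became 28 without depletion library 3 (22.9% of all genes), 27 without IgG 1 (30.4%) and 0 after scaling to microglia markers (9.48%). Ndufs4, a complex I subunit, was at 23.3, 27.8 and 26.2 FPKM against 33.2 and 38.02. Glycolysis and hypoxia genes had 2 higher and 1 lower of 28, and cholesterol synthesis and uptake genes 3 and 0 of 22. Ribosomal protein genes had 4 and 4 of 47, where 10.9% of all genes were higher and 16.4% lower. Without depletion library 1 the cholesterol synthesis count was 12 higher, beside 19.4% of all genes, and the glycolysis count 7 lower, beside 18.9%. Cholesterol efflux and lipid storage genes had 4 higher (23.5%) and 0 lower of 17, beside the same 10.9% and 16.4%. Plin3, a lipid droplet coat protein, was at 14.1, 7.29 and 8.49 against 5.28 and 5.33. Medians of these 4 lists ran from -0.03 to 0.25.

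**Figure D4:**
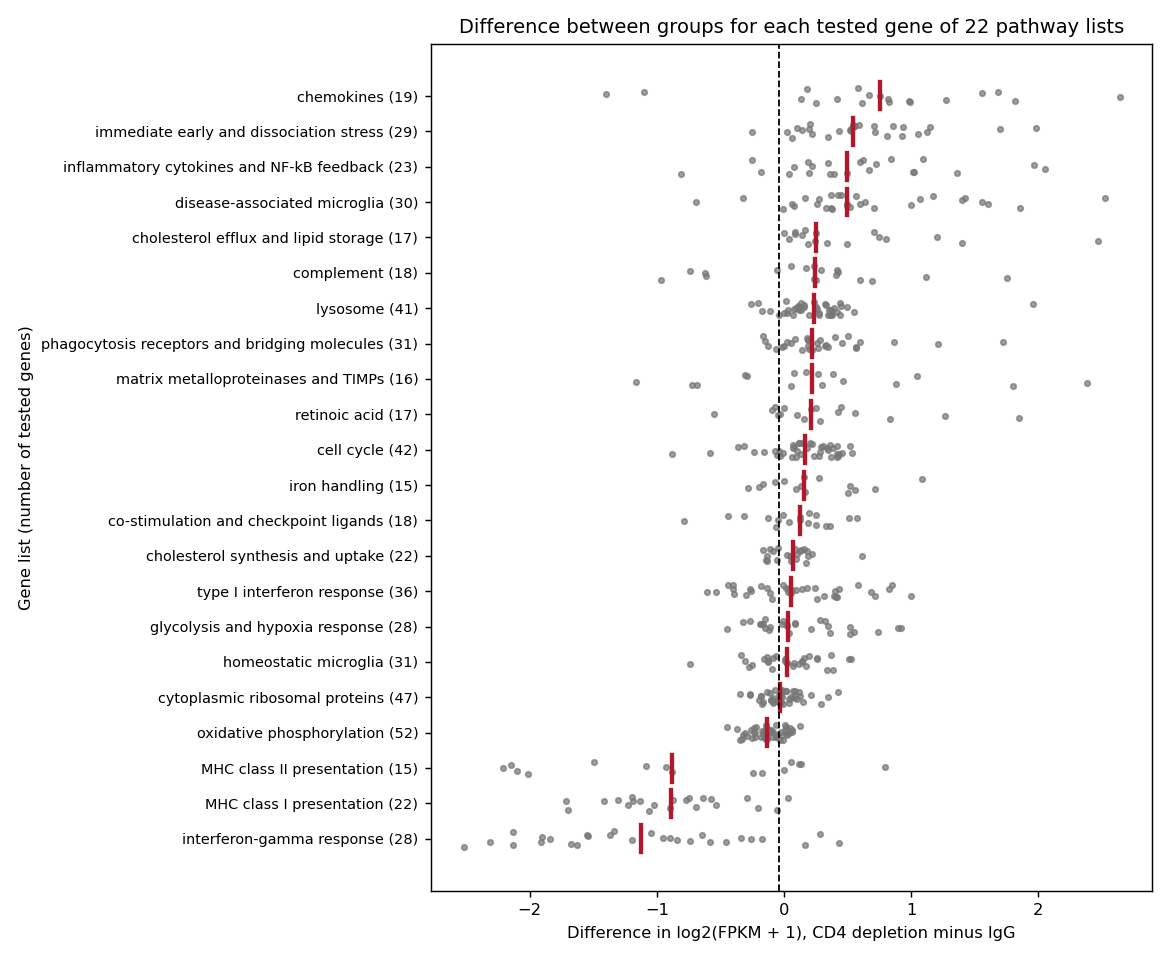
Difference in log2(FPKM + 1), depletion minus IgG, of each tested gene (grey points) in 22 pathway lists, with list medians as red bars and the median of all 12739 genes, -0.04, as a dashed line. The class II, class I and interferon-gamma lists have medians of -0.88, -0.89 and -1.12, and the other lists lie between -0.13 and 0.75.

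Y-linked transcripts differed between the groups. Eif2s3y stood at 6.86, 4.92 and 4.34 FPKM against 0.896 and 0.947, Uty at 2.09, 2.09 and 1.599 against 0.494 and 0.228 and Ddx3y at 4.88, 3.24 and 2.52 against 1.21 and 0.576, each with no overlap. By p among all tested genes, Eif2s3y ranked 3, Uty 17 and Ddx3y 47. Their means over the groups lay under the 5 FPKM asked of genes named by p. Kdm5d overlapped at 0.663, 1.88 and 1.08 against 0.746 and 0.061. The X-linked Xist was present in all, at 3.42, 2.55 and 2.42 against 2.16 and 2.48. Both kinds of transcript were low, the labels state no sex, and the part of this difference in the other results was not tested.

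Other counts of genes without overlap also rose when a library was left out, as they did among all genes, where 14.9% to 23.6% were then higher and 18.9% to 30.4% lower. Many lists moved without IgG 2. Beside 23.6% of all genes, the genes then higher numbered 11 of 19 chemokines, 13 of 23 inflammatory genes and 9 of 18 co-stimulation and checkpoint genes. They also numbered 14 of 31 phagocytosis genes and 11 of 18 complement genes. The same setting gave 22 of 41 lysosome, 21 of 30 disease-associated, 8 of 22 cholesterol synthesis, 13 of 17 lipid efflux, 19 of 29 immediate early and 17 of 47 ribosomal genes.

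Depletion library 2 and IgG 1 moved some of these lists as well. Without depletion library 2, beside 17.3% of all genes, 27 lysosome genes, 18 disease-associated, 10 phagocytosis, 9 complement, 9 lipid efflux, 8 inflammatory, 8 glycolysis and 7 chemokine genes were higher. Without IgG 1, beside 22% higher and 30.4% lower among all genes, 18 lysosome and 8 inflammatory genes were higher and 21 ribosomal genes lower. For fibroblast and matrix genes the 6 higher became 10 of 11 without depletion library 3, beside 14.9% of all genes.

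**Figure D5:**
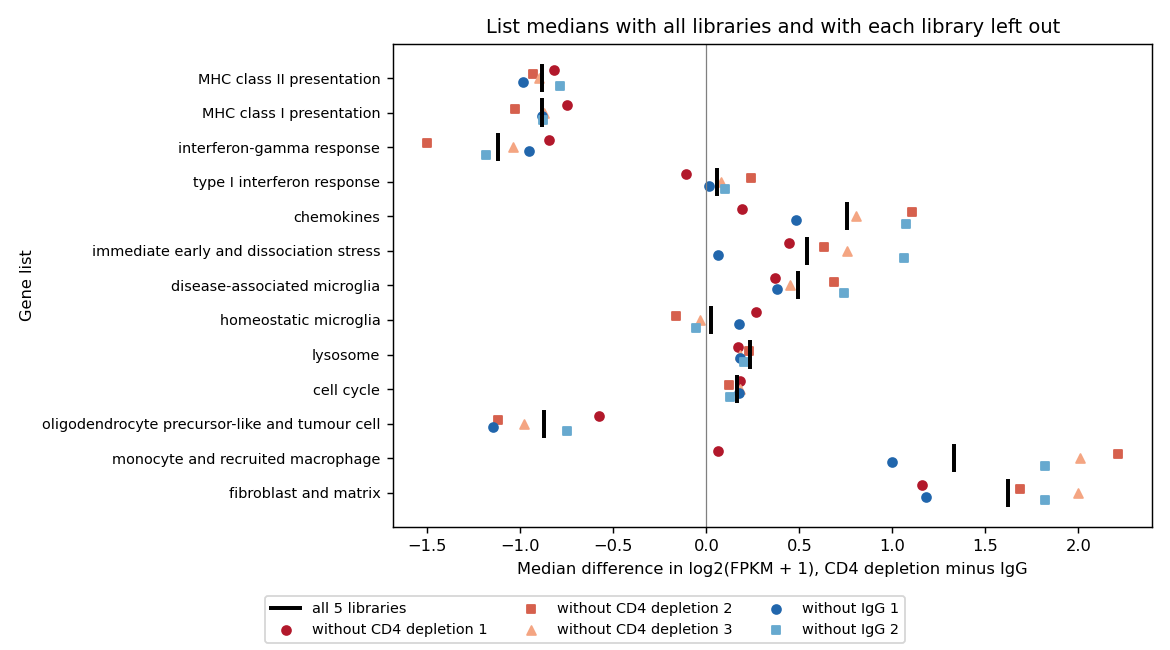
Median difference of 13 gene lists with all 5 libraries (black bars) and with each library left out (points). Class II, class I, interferon-gamma and tumour cell medians stay below 0 whichever library is left out, while the monocyte median stands at 0.06 without depletion library 1 and the immediate early median at 0.06 without IgG 1.

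By the depth that low FPKM values imply, each library held 49900000 to 61800000 reads in genes, and 12183 to 12401 genes reached 1 FPKM. Counting over both strands merges a gene with any overlapping or antisense partner, such as Mir5107 inside the interval of Cd74.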

How the data were processed

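STAR, HOMER and DESeq2 with build mm10 are listed in the submitters' processing notes, and their versions are not given in the sources used here. The FPKM values as deposited were made by HOMER over exons of both strands, scaled to depth, with 1 entry kept per gene, per the file headers. The 2 columns named for anti-CTLA4 have sheet numbers in conflict with their labels and entered only 1 alternative, as a shared estimate of the spread.

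Low values gave the depth: for transcripts of 200 to 800 nt and up to 20 reads, 272 to 302 values per library were checked, and 100% were within 0.1 of a whole read. The implied totals were 84200000 to 108000000 reads.

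Genes with at least 1 FPKM in 2 of 5 libraries were compared with limma 3.58.1 (R 4.3.3, mean-variance trend) on log2(FPKM + 1), two-sided, with Benjamini-Hochberg adjustment over 12739 genes and a threshold of 0.05. The pseudocount makes differences of low genes smaller. The test was checked on simulated data with independent noise between libraries. They held no library set apart as depletion library 1 was, so the check does not show how the test does with such a library. Lists (38, with 802 of 809 genes in the table) are described by counts and medians. The comparison and the lists were chosen with earlier results of these data known.

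Named genes are, per direction, 10 with a mean of at least 5 FPKM and no overlap, taken by p since none passed, without predicted genes, clone names and small RNAs. Up to 4 members of each list by p and a panel were added. Other list members, such as H2-Oa, Ctss, Igtp, Irgm1, Rsad2, Chil3, Ccnd1 and Fos, were named after their values were seen. Alternatives changed the pseudocount, filter, scaling, spread, trend, replicate block and libraries. A few genes taken by the rule are not reported here.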

Additional observations from a re-analysis of the deposited data

How the results depend on the processing

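No gene passed an adjusted p of 0.05 under the pseudocounts of 0.1 and 5, no filter, the filter at 5 FPKM, median-of-ratios scaling, quantile normalization, a spread shared by 7 libraries, no trend, the replicate block, or with any 1 library left out. In those settings 0 were higher and 0 lower, and limma's smallest adjusted p ran from 0.255 without IgG 1 to 0.976 without IgG 2. The exception was scaling to the microglia markers, with 31 genes higher and 21 lower (smallest adjusted p 2.97e-07). There limma pooled the variance of all genes fully, and 20 of 183 named genes passed, H2-Aa, H2-Ab1, H2-Eb1 and Cd74 among them. Genes without overlap numbered 145 higher and 1208 lower under that scaling and 921 higher under the filter at 5 FPKM, which tests fewer genes. With 1 library left out, 1893 to 3001 were higher and 2402 to 3878 lower, since fewer libraries overlap less often. Where IgG kept 1 library, it was assumed to vary like the treated group. Medians that changed sign in some setting included those of type I interferon, homeostatic, glycolysis, cholesterol synthesis, ribosomal, iron handling and retinoic acid genes. Same-numbered samples of the groups share only a number, and their deviations correlated at -0.18 and -0.21. With that number as a replicate block, 0 genes passed in each direction, with 214 higher and 332 lower at an unadjusted p under 0.05. Implied library depth was greater in each depletion library than in either IgG library, at 108000000, 87700000 and 93900000 reads against 84500000 and 84200000. Depth sets what can be seen of low genes such as Ciita, and its part in the results was not tested.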

Other observations

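Enzymes and carriers outside the immune lists also differed in single genes, although none passed the limma threshold. Of 16 matrix metalloproteinase and TIMP genes tested, 3 were higher (18.8%) and 1 lower (6.25%) in every depletion library. Among all genes, 10.9% were higher and 16.4% lower. Mmp9, a gelatinase that is also a neutrophil marker, stood at 27.9, 8.78 and 5.46 FPKM in the depletion libraries and 1.505 and 1.196 in IgG, a log2 difference of 2.38 (SE 0.61). Neutrophil markers were highest in depletion library 1, where Mmp9 was highest too, and their part in it was not tested. Mmp16, a membrane-type metalloproteinase, was lower, at 2.13, 2.07 and 1.55 against 3.995 and 3.58.

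Of 15 iron handling genes, 4 were higher in every depletion library (26.7%) and 0 lower, beside 10.9% and 16.4% of all genes. Hmox1, which breaks down haem, was at 123, 46.5 and 74.2 FPKM against 36.2 and 33.7, and Fth1, the ferritin heavy chain, at 3080.2, 1555 and 2871 against 1502 and 1421. The retinoic acid list had 4 higher (23.5%) and 0 lower of 17, beside the same shares of all genes. Under the filter at 5 FPKM, 8 were tested, and 2 were higher and 0 lower, beside 11% and 17%. Stra6, a membrane transporter of retinol, was at 12.7, 4.798 and 2.73 FPKM against 0.926 and 0.783, and Crabp2, which carries retinoic acid in the cell, at 1.48, 1.58 and 2.55 against 0.966 and 0.279. Stra6 and Crabp2 reached 1 FPKM in depletion libraries only, so they entered the comparison through that group. The enzymes that make retinoic acid, Aldh1a1, Aldh1a2 and Aldh1a3, overlapped between groups. Without IgG 1, the counts higher were 8 of 16 metalloproteinase and TIMP genes, 7 of 15 iron handling and 11 of 17 retinoic acid genes, beside 22% of all genes. The counts lower were then 2, 1 and 0, beside 30.4%. Without IgG 2, the same lists had 4, 6 and 6 higher, beside 23.6%, and 3, 3 and 4 lower, beside 29.1%.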
